A study of Homo sapiens with 6 samples.

Results

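The genes described here are the fibroblast growth factor (FGF) ligands FGF1, FGF2, FGF9, FGF11, FGF18 and FGF19, the FGF-binding proteins FGFBP1 and FGFBP3, and the receptor-like protein FGFRL1. They are 9 of the 28395 genes in the expression table and were taken by gene symbol. The group was chosen by values of the contrast described below, since FGFBP1 had one of the largest falls, so the values of these 9 genes are given as a description without a test. RNA was sequenced from HCC827 cells, a human lung adenocarcinoma line with an activating deletion in EGFR. The cells received either the vehicle DMSO (3 libraries) or 1 μM erlotinib, an inhibitor of the EGFR kinase (3 libraries), for 24 h, which asked how the transcriptome responds when EGFR is inhibited. All 6 libraries came from this single line and carried the same EGFR mutation. The labels do not say whether the libraries of a group came from separate cultures, and the methods speak of independent repeats only for the study in general, so p-values measure only the spread between these libraries. The DMSO libraries are numbered 1, 2 and 3 and the erlotinib libraries 4, 5 and 6, as in the table.

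FGFs are small proteins that bind receptor tyrosine kinases on the cell surface together with heparan sulfate, a sugar chain of the matrix and the cell membrane, and the receptors then signal through the adaptor FRS2 to the RAS and ERK cascade. Heparan sulfate also stores the ligands close to the cell that made them, and the secreted FGF-binding proteins carry stored FGF to its receptors. In the developing lung, FGFs pass between the epithelium and the mesenchyme and guide branching.

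Erlotinib libraries had far less FGFBP1 RNA, less FGF2 and FGF1, and more FGF9, FGFRL1, FGFBP3 and FGF11 than DMSO libraries. FGFBP1 was 26.2-fold lower and FGF9 was 9.92-fold higher, while the remaining changes lay between 1.70-fold and 3.64-fold. FGF18 had a handful of reads in both groups, and FGF19 had none in any library. In bulk RNA, fewer cells that express a gene and less of its RNA per cell cannot be told apart.

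The libraries held 20858083, 24641819 and 21172884 reads on genes in DMSO and 21944007, 20760204 and 21678395 in erlotinib. Values below are signal, which is reads divided by one size factor per library, between 0.882 and 1.08 here. Within a group, log2 signal correlated across genes at r between 0.983 and 0.9903, and between groups at r between 0.901 and 0.910, so no library stood with the other group. Erlotinib libraries had a read for more genes (17430, 17367 and 17583) than DMSO libraries (16446, 16555 and 16564). The label of the line was checked against lung adenocarcinoma markers, and all 9 had reads. KRT7, the most abundant, was at 127142, 114926 and 128989 in DMSO and 76688, 80598 and 82404 in erlotinib. Of the 8 tested, 4 were called lower, 2 higher and 2 neither, where 35.4% of all tested genes were called lower and 35.3% higher. The lineage factor NKX2-1 rose from 3002 to 8644 (1.53, adjusted p = 5.2e-14, limma with Benjamini-Hochberg adjustment) and NAPSA, an alveolar protease, from 986 to 3733 (1.92, adjusted p = 8.4e-15), whereas the 4 keratins of the list were lower, KRT18 by the most (-1.25, adjusted p = 1.6e-12). The part of these changes in the FGF values was not tested. SFTPB, a surfactant gene, was near 0, with signals between 3.71 and 12.2.

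Markers of other cell types were far below KRT7, but some were as high as genes of the group. COL1A1 had a mean of 216 in erlotinib, where FGF1 had 28.6, and KRT5 had 104 in DMSO, where FGF1 also had 104. The 6 fibroblast markers summed to 73.7, 75.2 and 109 in DMSO and 260, 223 and 215 in erlotinib, most of it COL1A1, whereas COL1A2, COL3A1 and DCN were at or near 0. LUM was at 2.27, 3.71 and 6.42 in DMSO and 9.23, 9.90 and 18.7 in erlotinib. Its groups did not overlap, and it was too low to be tested. The 6 squamous and basal markers, of which KRT5 was the most abundant over all libraries together, summed to 242, 384 and 416 in DMSO and 307, 261 and 223 in erlotinib. Of the 5 tested, 1 was called lower (20.0%, beside 35.4% of all tested genes) and 4 neither. The 1 lower was SPRR1B, at 68.1, 78.9 and 69.6 in DMSO and 29.5, 20.8 and 15.9 in erlotinib (-1.70, adjusted p = 6.1e-05, limma). The 5 endothelial markers summed to 34.0, 15.8 and 24.6 against 58.1, 46.5 and 48.7. The most abundant of them was PECAM1 in DMSO, at 19.3, 14.9 and 12.8, and VWF in erlotinib, at 35.1, 25.7 and 21.5. The 5 leukocyte markers summed to 23.8, 20.4 and 39.6 against 46.1, 10.9 and 22.5, with LST1 at 0. The highest mean was that of CD79A in DMSO (17.8) and of CD14 in erlotinib (11.8). SPRR1B thus moved in the direction of FGFBP1. COL1A1 and the untested LUM were higher with erlotinib, like FGF9. VWF was higher too, from 3.40, 0.93 and 7.49 in DMSO. It reached the mean signal of 10 only through the erlotinib libraries, so its rise is a description. COL1A2 had 3 reads in DMSO and 0 in erlotinib, and COL3A1 had 4 and 1. PECAM1 had means of 15.7 in DMSO and 10.4 in erlotinib (adjusted p = 0.35, limma). The part of such cells in the FGF values was not tested.

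The promoters of the 3 genes of this group that were lower with erlotinib are shown here. Those of FGFBP1 and FGF1 held far fewer CG pairs than that of FGF2. Each run is 300 bases, from 250 before to 50 after the start site that the RefSeq promoter table uses (GRCh38.p14), written 5′ to 3′ along the gene, with each CG pair in capitals. FGFBP1 lies at chr4:15938691-15938990 on the minus strand, FGF1 at chr5:142698021-142698320 on the minus strand and FGF2 at chr4:122826581-122826880 on the plus strand. The site used for FGF2 lies 149 bases inside the annotated gene, and that for FGFRL1, whose window is counted below, 2252 bases inside.
FGFBP1: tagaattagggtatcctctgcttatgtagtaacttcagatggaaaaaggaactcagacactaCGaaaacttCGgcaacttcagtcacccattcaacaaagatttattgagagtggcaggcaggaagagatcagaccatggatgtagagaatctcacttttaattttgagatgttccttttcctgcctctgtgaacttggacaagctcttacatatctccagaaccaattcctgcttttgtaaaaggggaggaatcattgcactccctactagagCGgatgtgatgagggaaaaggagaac
FGF1: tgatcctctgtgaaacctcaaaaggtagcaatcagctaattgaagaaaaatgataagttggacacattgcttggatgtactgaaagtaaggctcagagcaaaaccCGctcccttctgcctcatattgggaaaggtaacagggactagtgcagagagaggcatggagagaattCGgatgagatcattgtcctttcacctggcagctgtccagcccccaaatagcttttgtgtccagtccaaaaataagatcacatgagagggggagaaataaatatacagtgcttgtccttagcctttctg
FGF2: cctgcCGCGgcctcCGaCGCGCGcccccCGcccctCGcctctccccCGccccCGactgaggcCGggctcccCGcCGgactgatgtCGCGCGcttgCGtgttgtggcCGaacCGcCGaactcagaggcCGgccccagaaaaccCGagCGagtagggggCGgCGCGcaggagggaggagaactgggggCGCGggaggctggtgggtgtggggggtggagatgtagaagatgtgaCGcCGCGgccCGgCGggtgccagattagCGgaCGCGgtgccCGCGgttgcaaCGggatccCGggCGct
The FGFBP1 window held 3 CG pairs and the FGF1 window 2, counts that 25.3% and 19.0% of the 27305 RefSeq promoters reach at most. The FGF2 window held 41, and 94.3% of promoters hold that many or fewer. Among the genes of the group that were higher, FGFBP3 had 10 CG pairs, FGF11 had 23 and FGFRL1 had 25. The window of FGF18, which was too low to be tested, held 38. FGF9, which had the largest rise of the group, was not among the promoters counted, and the count was chosen after the promoters were seen.

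Short motifs were searched on both strands of the 7 promoters with an entry. The GC box letters GGGCGG were found in FGF2, FGF11, FGF18 and FGFRL1, against 44.6% of all promoters. The AP-1 letters TGANTCA (7.76% of all promoters), the ETS letters CCGGAA (17.6%), the TEAD letters GGAATG (14.0%) and the TATA letters TATAAA (12.0%) were in none of the 7 windows. A missing match says only that these letters are not in this window.

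FGFBP1 encodes a secreted carrier that frees FGF1 and FGF2 from heparan sulfate (Entrez 9982, chr4:15935577-15938740, minus strand). Its signal was 1283, 1348 and 1156 in the DMSO libraries and 44.3, 56.4 and 43.995 in the erlotinib libraries. Every erlotinib library was far below every DMSO library, and the values within each group lay close together. The means were 1262 ± 97.9 and 48.2 ± 7.09 (SD, 3 libraries each), and the fitted log2 difference was -4.69 (SE 0.14) on the log2(signal + 1) scale. These values rest on 3663 reads in DMSO and 152 in erlotinib. Among 14215 genes tested, those whose mean signal reached 10, FGFBP1 had the 4th largest fall. It stood after the noncoding RNA CCAT1 (-5.14) and the ETS factor ETV1 (-5.04), and before MYEOV (-4.50) and the replication factor MCM10 (-4.41). This order depends on the pseudocount. With a pseudocount of 10, ETV1 was at -4.22 and MYEOV at -2.78, both behind FGFBP1 at -4.45, and with one of 0.1 MYEOV was at -5.71.

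FGFBP3 encodes another secreted FGF-binding protein (Entrez 143282, chr10:91906584-91909486, minus strand). Its signal was 36.3, 33.4 and 38.5 in DMSO and 69.2, 52.5 and 83.3 in erlotinib. The groups did not overlap, although the erlotinib libraries were widely spread. The means were 36.1 ± 2.56 and 68.3 ± 15.4, a log2 fold change of 0.88 (SE 0.28). Without erlotinib library 6 it was 0.73. The third gene of the family, FGFBP2, had no read in any library, so the 2 detected carriers differed in opposite directions. The summed signal of the family was 1319, 1382 and 1194 in DMSO and 114, 109 and 127 in erlotinib.

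FGF2, basic FGF, is a ligand without a signal peptide that leaves cells by an unconventional route (Entrez 2247, chr4:122826682-122898236, plus strand). Its signal was 1437, 1664 and 1492 in DMSO and 594, 559 and 569 in erlotinib. The groups were well apart, with means of 1531 ± 118 and 574 ± 18.0 and a log2 fold change of -1.41 (SE 0.09). FGF2 overlaps NUDT6, a gene transcribed from the opposite strand, and reads in the shared stretch cannot be assigned to one of them without strand. NUDT6 itself had mean signals of 99.6 and 84.4 (adjusted p = 0.37, limma with Benjamini-Hochberg adjustment).

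FGF1, acidic FGF, binds every FGF receptor and likewise lacks a signal peptide (Entrez 2246, chr5:142592178-142698070, minus strand). Its signal was 95.3, 139 and 78.1 in DMSO and 26.8, 36.6 and 22.5 in erlotinib. All erlotinib libraries lay below the lowest DMSO library, and DMSO library 2 was the highest. The means were 104 ± 31.6 and 28.6 ± 7.26, a log2 fold change of -1.82 (SE 0.29).

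FGF9 is a secreted ligand made by the epithelium and mesothelium of the developing lung (Entrez 2254, chr13:21671073-21704498). Its signal was 46.5, 23.2 and 32.1 in DMSO and 353, 355 and 302 in erlotinib. The erlotinib libraries lay close together, all far above DMSO. The means were 33.9 ± 11.8 and 337 ± 29.8, a log2 fold change of 3.32 (SE 0.23) that rests on 96 reads in DMSO and 1064 in erlotinib. FGF9 had the 193rd largest rise among the tested genes, a place given as a description only.

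FGF11 belongs to the FGF homologous factors, which stay inside the cell and bind sodium channels instead of FGF receptors (Entrez 2256, chr17:7438298-7444937, plus strand). Its signal was 51.0, 77.1 and 79.2 in DMSO and 122.7, 108 and 122.6 in erlotinib. The groups did not overlap, and DMSO library 1 was the lowest. The means were 69.1 ± 15.7 and 118 ± 8.53, a log2 fold change of 0.78 (SE 0.22). FGF11 lies 123 bases from CHRNB1 and 618 bases from TMEM102. CHRNB1 rose from 521 to 773 (adjusted p = 2e-05, limma with Benjamini-Hochberg adjustment) and TMEM102 from 1017 to 1522 (adjusted p = 6.6e-05).

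FGFRL1 binds FGFs but has no kinase domain (Entrez 53834, chr4:1010212-1026898, plus strand). Its signal was 901, 698 and 870 in DMSO and 1480, 1391 and 1492 in erlotinib. The groups were clearly apart, with DMSO library 2 the lowest. The means were 823 ± 109 and 1454 ± 55.3, a log2 fold change of 0.83 (SE 0.10).

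FGF18, a ligand of lung and bone development, had signals of 0, 11.1 and 4.28 in DMSO and 6.46, 0.99 and 9.36 in erlotinib (Entrez 8817, chr5:171419647-171457626, plus strand). The groups overlapped, with 16 reads in all against 18, and the gene was too low to be tested. FGF19, an endocrine FGF that acts through FGFR4 with the co-receptor KLB, had 0 reads in all 6 libraries (Entrez 9965, chr11:69698238-69704022). A count of 0 allows up to 3 reads per library, which equals 0.0669 to 0.0794 RPKM (reads per kilobase of exon, scaled to the reads of the library), for counting error only.

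**Figure D1:**
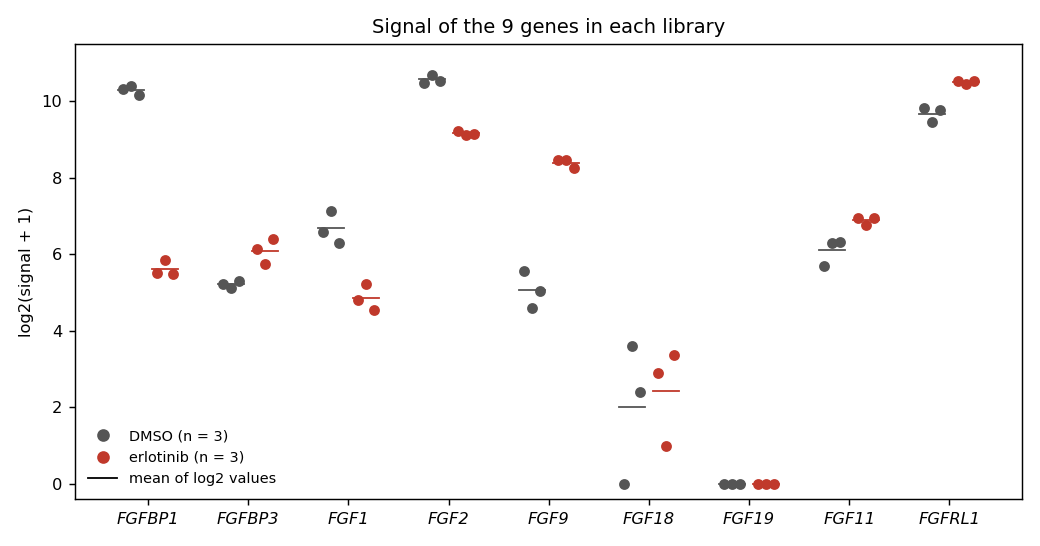
Signal of each of the 9 genes, as log2(signal + 1) on the vertical axis; points are the 3 DMSO (grey) and 3 erlotinib (red) libraries and short lines are the means of the log2 values. The 3 erlotinib libraries lie below DMSO for FGFBP1, FGF2 and FGF1, above it for FGF9, FGFRL1, FGFBP3 and FGF11, and overlap it for FGF18, while FGF19 is at 0.

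Of the 9 genes, 7 reached a mean signal of 10 and entered the fit across all genes. Of these, 3 were called lower and 4 higher, where 35.4% of all tested genes were called lower and 35.3% higher. Across all genes 5031 were lower and 5012 higher, and 3951 and 6182 when libraries were scaled to their total count. The groups did not overlap, downwards, for 3 of the genes (36.9% of all tested genes) and, upwards, for 4 (36.7%). The genes were selected on this contrast, so nothing is read from these counts, nor from the absence of FGFBP3 from them when erlotinib library 6 was left out. The median log2 fold change of the 7 was 0.78, against 0.02 over all tested genes.

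**Figure D2:**
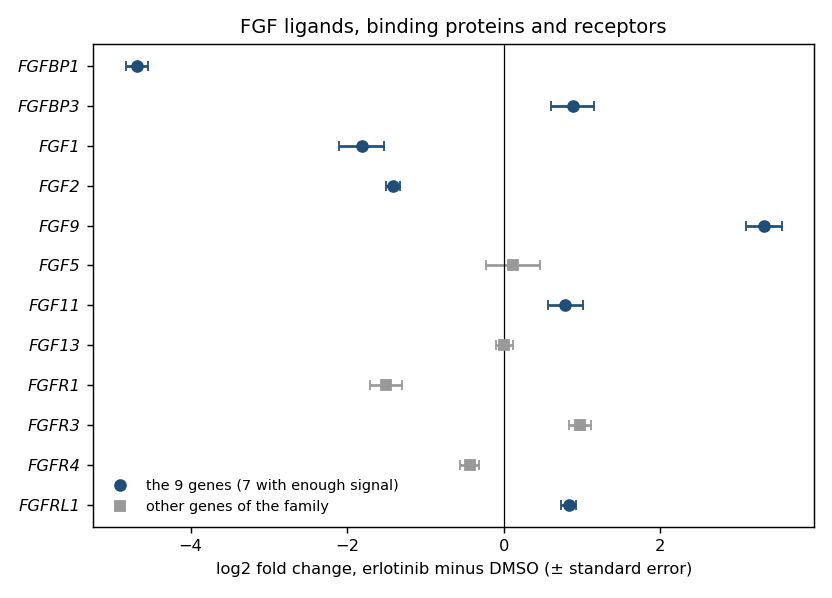
Log2 fold change, erlotinib against DMSO, of the 7 tested genes of the group (circles) and of other tested ligands and receptors (squares); points are estimates on the log2(signal + 1) scale and bars are standard errors, with 3 libraries per group. FGFBP1 lies at -4.69 and FGF9 at 3.32, with the other circles between -1.82 and 0.88, while FGF5 and FGF13 lie near 0.

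The selection left out other FGF ligands. Of the 16 remaining, 9 had a read in some library and 2 reached a mean signal of 10. FGF13, an intracellular homologous factor like FGF11, was at 505, 632 and 549 in DMSO and 554, 583 and 550 in erlotinib. These groups overlapped, with a log2 fold change of 0.01 (SE 0.11, adjusted p = 0.95, limma with Benjamini-Hochberg adjustment). FGF5, a secreted ligand known from the hair cycle, was at 56.7, 41.8 and 26.8 against 64.6, 28.7 and 43.995, also overlapping (0.12, SE 0.35, adjusted p = 0.77, limma). FGF17, below the limit, was at 0, 5.57 and 2.14 in DMSO and 9.23, 26.7 and 15.0 in erlotinib, and was singled out after its values were seen because its groups did not overlap. Across the whole family of 22 ligands, 14 had a read, 6 were tested, 2 of these were called lower, 2 higher and 2 neither. This is 33.3% lower and 33.3% higher, near the 35.4% and 35.3% of all tested genes. The called ligands were FGF1, FGF2, FGF9 and FGF11, all from the selected group.

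Levels of different genes were compared per length, as RPKM over the union of their exons. In DMSO cells FGFBP1 was the most abundant of the 9 at 40.5 ± 2.95 RPKM, followed by FGF2 at 9.77 ± 0.884 and FGFRL1 at 8.21 ± 1.03. FGF1 (0.908 ± 0.279), FGFBP3 (0.613 ± 0.0480) and FGF11 (0.592 ± 0.145) came next. The last 2 overlapped, as did FGF9 (0.302 ± 0.0985) and FGF18 (0.113 ± 0.123). In erlotinib cells the order was FGFRL1 (16.5 ± 0.751), FGF2 (4.15 ± 0.158), FGF9 (3.41 ± 0.292), FGFBP1 (1.75 ± 0.243), FGFBP3 (1.32 ± 0.305), FGF11 (1.14 ± 0.0911), FGF1 (0.282 ± 0.0693) and FGF18 (0.138 ± 0.105). FGFBP3 overlapped with FGFBP1 and with FGF11 in this order, and FGF1 overlapped with FGF18. Parts of the order depend on the gene model. Over its longest transcript FGFRL1 was at 9.80 RPKM in DMSO, level with FGF2 at 9.77. On the same basis FGF11 was at 1.17 in DMSO, close to FGF1 at 1.11, and at 2.24 in erlotinib, above FGFBP1 at 1.75.

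The ligands together changed less than their composition. Summed over all 22, they were at 12.0, 14.9 and 13.1 RPKM in DMSO and 11.7, 11.0 and 10.8 in erlotinib. Their summed signal, scaled by size factors, was 2192, 2601 and 2273 in DMSO and 1740, 1702 and 1639 in erlotinib, a larger fall. The groups did not overlap in either sum. FGF2 made up 74.4%, 71.7% and 74.1% of this sum in DMSO and 36.9%, 36.3% and 38.2% in erlotinib. FGF9 made up 3.38%, 1.40% and 2.24% in DMSO and 30.7%, 32.3% and 28.4% in erlotinib. FGF1 went from between 5.30% and 8.19% to between 2.06% and 3.24%, and the intracellular FGF11 went from between 3.54% and 5.27% to between 9.36% and 11.0%. FGF13, also intracellular, went from between 8.58% and 8.95% to between 11.3% and 12.4%. The sum thus includes homologous factors, which do not bind FGF receptors. The size of the FGF11 share depends on the gene model. Over its longest transcript FGF11 was at 1.17 RPKM in DMSO and 2.24 in erlotinib, against 0.592 and 1.14 over all exons. These shares follow from the values that chose the genes and are a description.

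**Figure D3:**
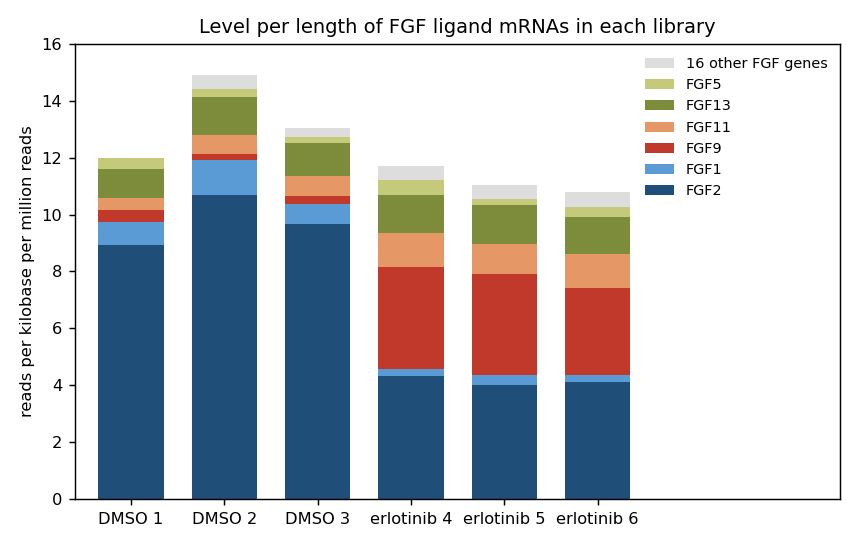
RPKM of the FGF ligands in each library, stacked by gene, with libraries along the horizontal axis. FGF2 holds more than 71% of the DMSO columns and less than 39% of the erlotinib columns, where FGF9 holds 28.4% to 32.3%.

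The receptors for these ligands were taken by family membership and tested, although the list was written with earlier results of these data known. FGFR1 was at 235, 251 and 226 in DMSO and 101, 99.99 and 56.2 in erlotinib. It was lower in all 3 erlotinib libraries, with a log2 fold change of -1.503 (SE 0.21, adjusted p = 1.6e-06, limma with Benjamini-Hochberg adjustment). FGFR3, which FGF9 binds strongly, was at 161, 155 and 153 against 292, 315 and 317. It rose by 0.97 (SE 0.14, adjusted p = 2.5e-06, limma) without overlap. FGFR4, the receptor of FGF19, was at 413, 418 and 474 against 363, 316 and 287. It fell by 0.44 (SE 0.12, adjusted p = 0.0034, limma), a call that was lost when libraries were scaled to their total count. Per length, FGFR1 went from 0.598 to 0.245 RPKM and FGFR3 from 1.40 to 3.12, while FGFR4, at 3.92 and 3.29, had the highest mean of these receptors in both groups. In erlotinib its range (2.94 to 3.72) took in that of FGFR3 (2.97 to 3.23). Over the longest transcript FGFR1 was at 1.65 in DMSO, above FGFR3 at 1.57, and at 0.678 in erlotinib, below FGFR3 at 3.51. FGFR2 had signals of 5.67, 5.57 and 0 against 12.0, 13.9 and 3.74. The co-receptor KLB had 20.4, 14.9 and 4.28 against 1.85, 7.92 and 3.74, and KL at most 3.21, with 0 in every erlotinib library. These 3 were too low to be tested. Of the 6 receptors and co-receptors outside the group, 3 were tested, with 2 called lower and 1 higher. Among all tested genes 35.4% were called lower and 35.3% higher.

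The heparan sulfate proteoglycans hold FGFs at the cell surface and in the matrix. Of 13 core protein genes, 11 were tested, and 9 were called higher and 2 lower (median 0.63 on the log2 scale), where 35.3% of all tested genes were called higher and 35.4% lower (median 0.02). GPC2, a glypican, rose from 49.6 ± 9.02 to 263 ± 14.5 (log2 fold change 2.40, SE 0.19, adjusted p = 5.7e-10, limma). SDC3, a syndecan, rose from 1036 to 2815 (1.44, adjusted p = 6.9e-13) and COL18A1, the basement membrane collagen, from 1265 to 2882 (1.19, adjusted p = 6.4e-11). GPC4 went from 0, 1.86 and 2.14 to 20.3, 19.8 and 30.9, a rise on very few DMSO reads. It reached the mean signal of 10 only through the erlotinib libraries, so its place among the 9 higher is a description. With at least 10 reads required in every library, 8 core proteins were higher. SDC2 went from 32.7 ± 12.4 to 5.32 ± 5.20 (-2.71, SE 0.65). It reached the mean signal of 10 only through the DMSO libraries, so its place among the 2 lower is a description too. The SDC2 value was -2.04 without erlotinib library 6, -3.36 without erlotinib library 4 and -1.48 with a pseudocount of 10. The other call lower was SDC1 (-0.16, adjusted p = 0.045), whose groups overlapped and which is named after its values were seen because the count is small. Only 1 core protein was lower when the libraries were scaled to total count, under DESeq2 or edgeR, or when any single library other than DMSO library 2 was left out.

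Of 20 genes that build or edit heparan sulfate, 13 were tested, and 5 were called higher, 4 lower and 4 neither (median -0.03), which is 38.5% higher and 30.8% lower beside 35.3% and 35.4% of all tested genes. The count lower was 2 when scaled to total count, and also without DMSO library 1. SULF1, a sulfatase that removes sulfate groups needed for FGF receptor binding, rose from 20.4 ± 13.2 to 130 ± 25.4 (2.84, SE 0.40, adjusted p = 2e-06, limma), and by 2.23 without DMSO library 1. HPSE, the heparanase that cuts the chains, rose from 147 to 354 (1.26, adjusted p = 5.2e-08), and NDST2, a sulfotransferase, from 250 to 506 (1.01, adjusted p = 1.5e-07). Of 6 genes linked to release of FGF1 and FGF2, 5 were tested, and 1 was called higher, 2 lower and 2 neither (median -0.03), again beside 35.3% and 35.4% of all tested genes. The one higher was SYT1, a vesicle protein, at 309 ± 23.4 and 1115 ± 4.33 (1.85, adjusted p = 8.1e-13), while ANXA2, an annexin named after its values were seen, was among those lower (-0.56, adjusted p = 1e-07).

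Of 12 adaptor genes of FGF receptors, all were tested, and 7 were called lower, 4 higher and 1 neither (median -0.21). This is 58.3% lower and 33.3% higher beside 35.4% and 35.3% of all tested genes. When libraries were scaled to their total count, 5 adaptors were lower and 5 higher. FRS3 rose from 76.3 ± 16.3 to 158 ± 27.0 (1.05, adjusted p = 0.00015, limma). Of 15 response genes of FGF and ERK signalling, 14 were tested, and 11 were called lower, 2 higher and 1 neither (median -1.29), which is 78.6% lower and 14.3% higher beside the same shares of all tested genes. ETV1 fell from 405 ± 88.5 to 12.7 ± 7.11 (-5.04, adjusted p = 4.6e-11), ETV5 from 1327 to 67.6 (-4.38, adjusted p = 2.6e-13), DUSP6, a phosphatase of ERK, from 1391 to 68.2 (-4.33, adjusted p = 5.1e-17) and SPRY4, a feedback inhibitor, from 351 to 22.3 (-3.95, adjusted p = 2.7e-12). FLRT3, a membrane partner of FGF receptors, went the other way, from 441 to 1972 (2.16, adjusted p = 1.3e-14). EGFR also signals through ERK, as FGF receptors do, and the part of either in the values of these response genes was not tested.

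**Figure D4:**
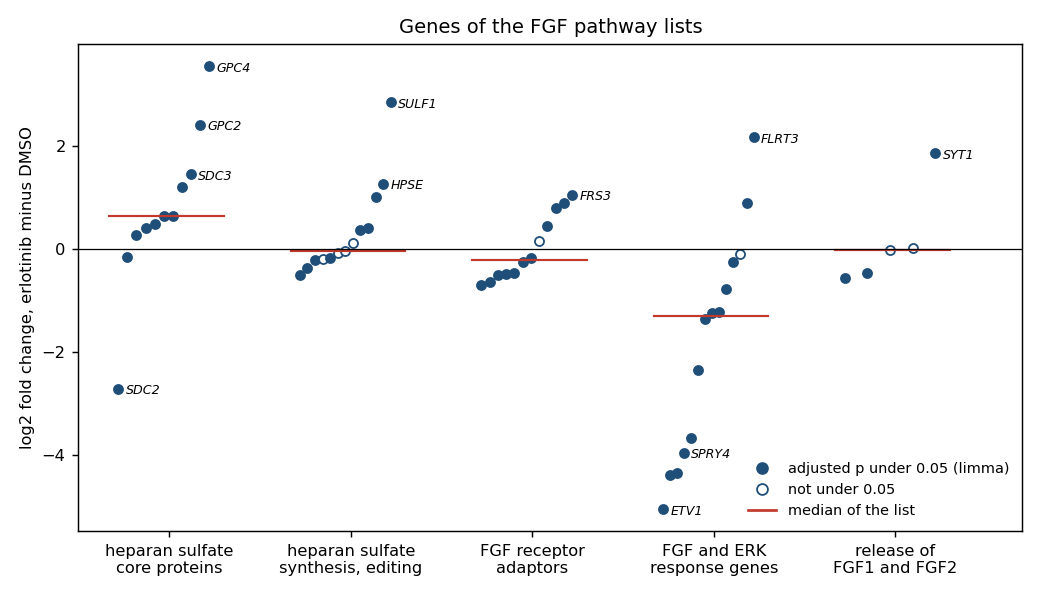
Log2 fold change, erlotinib against DMSO, of every tested gene in each pathway list, on the log2(signal + 1) scale; each point is a gene, filled where its adjusted p was under 0.05, with some of the largest changes named and a red line at the median of the list. Response genes lie mostly below 0, with ETV1 at -5.04, and heparan sulfate core proteins mostly above 0.

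FGF19 sits beside CCND1, the gene of cyclin D1, on chromosome 11. CCND1 fell from 24391 to 2600 (-3.23, adjusted p = 4.6e-19, limma) and LTO1, 22884 bases from FGF19, from 1127 to 812 (-0.47, adjusted p = 5.1e-05). MYEOV went from 87.8 to 4.51 (-4.50, and -3.52 without erlotinib library 4 and -5.09 without erlotinib library 5). It reached the mean signal of 10 only through the DMSO libraries, so its fall is a description. ANO1 was at 10.5 and 12.4 (0.16, adjusted p = 0.81). FGF3 had no read in any library and FGF4 a single read in DMSO library 3, so the FGF genes of this stretch were at or near 0 reads beside CCND1 and LTO1.

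Neighbours of the other genes moved in varied directions. IDUA, 5647 bases before FGFRL1, rose from 40.9 to 361 (adjusted p = 3.8e-11, limma), while RNF212, on its other side, fell from 1333 to 719 (adjusted p = 1e-08). Beside FGF2, BBS12 rose from 125 to 326 (adjusted p = 1.2e-07) and SPATA5 fell from 702 to 238 (adjusted p = 2.7e-10). NPM1, 8746 bases before FGF18, fell from 6428 to 2855 (adjusted p = 4.3e-09). Beside FGFBP3, TNKS2 was at 1838 and 2091 (adjusted p = 0.042, a call lost under 8 alternatives) and BTAF1 fell from 964 to 803 (adjusted p = 0.01), a call lost when scaled to total count (-0.08 against -0.26) and at a threshold of 0.01. MICU2, next to FGF9, was at 875 and 855 (adjusted p = 0.77). The genes on either side of FGFBP1, CD38 and FGFBP2, were at or near 0, and SPRY4-AS1, the nearest gene before FGF1, was at 13.6, 26.0 and 2.14 in DMSO and 0 in erlotinib.

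The genes whose profile over the 6 libraries was most like that of FGFBP1 were found by Euclidean distance between log2(signal + 1) profiles, each centred on its mean. They were CLSPN (distance 0.507), MCM10 (0.513), DUSP6 (0.619), CDC6 (0.627) and RRM2 (0.731), where the median distance of all tested genes was 5.79. CLSPN was at 1640, 1687 and 1565 in DMSO and 80.3, 80.2 and 77.7 in erlotinib. Since the profiles contrast the same 2 groups, the distance mostly reflects a fall of similar size, between -4.14 and -4.41 for these 5 genes.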

How the data were processed

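RNA-seq libraries from HCC827 cells (3 DMSO, 3 erlotinib) were analysed from 1 table. Per the labels, reads were processed with Bowtie2 2.3.4, featureCounts 1.6.3 and DESeq2 1.18.1 on GRCh38. The deposited values are signal, reads divided by 1 size factor per library. All values (100%) were whole multiples of 1 read (tolerance 0.01), and the recovered reads gave depths, RPKM and the count tests. All 6 value columns were used, and those of erlotinib are tied to the group and not to single samples.

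The main fit was limma 3.58.1 (R 4.3.3, trend) on log2(signal + 1) for the 14215 genes whose mean signal reached 10, two-sided, with Benjamini-Hochberg adjustment at 0.05. RPKM used the exons of GENCODE v44, and positions, neighbours and promoters came from RefSeq (GRCh38.p14), with 7 of the 9 genes matched to a promoter. The genes and lists were chosen with earlier results of these data known. Named are the 9 genes, receptors, binding proteins, neighbours, the FGF19 and CCND1 locus, leading markers, list genes past the threshold with an absolute log2 fold change of at least 1 (up to the 4 largest per direction), and the 5 genes nearest FGFBP1. FGF5, FGF13, FGF17, SDC1, ANXA2 and the markers beyond the leading ones were named after their values were seen. Alternatives were total count scaling, TMM factors, DESeq2 1.42.0, edgeR 4.0.16, pseudocounts of 0.1 and 10, no filter, at least 10 reads in every library, a threshold of 0.01, and leaving out each library. One gene of the release list is counted but not reported here by name.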

Additional observations from a re-analysis of the deposited data

How the results depend on the processing

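All 7 tested genes of the group kept their direction under every alternative run, with FGFBP1 between -4.80 and -4.45 and FGF9 between 3.01 and 3.57 on the log2 scale. Scaling to total count moved the median of all tested genes from 0.02 to 0.20 and gave 3951 genes lower and 6182 higher, against 5031 and 5012. Under that scaling the medians of the lists were 0.81 (core proteins), 0.15 (heparan sulfate synthesis), -0.031 (adaptors), -1.12 (response genes), 0.15 (release) and -0.26 (receptors), with 1 core protein, 2 synthesis genes and 1 receptor lower, and 2 release genes and 1 ligand outside the group higher. Total count scaling also gave 5 adaptors lower and 5 higher. Without a filter, the median was 0.49 for core proteins and -0.82 for receptors, with 2 release genes and 1 ligand higher. The core protein count lower was 1 under DESeq2, edgeR, no filter, at least 10 reads in every library and a threshold of 0.01, where 2 synthesis genes were lower. Leaving out a library gave 1 to 2 core proteins and 2 to 4 synthesis genes lower, and medians of -0.090 to 0.063 for synthesis, -1.50 to -1.26 for response genes and -0.24 to -0.010 for release. Genes near no change turned: MICU2 to 0.15 (total count), FGF13 to -0.0094 (TMM factors), and, with a library left out, FGF5 ranged from -0.16 to 0.41, FGF13 from -0.067 to 0.095, ANO1 from -0.054 to 0.54 and MICU2 from -0.091 to 0.033. The cause was not tested. No paired analysis was possible because the erlotinib columns carry no sample number of the labels. Depth limits FGF18, FGF19, KLB and other genes with few reads.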
